A study of Mus musculus with 6 samples.

Results

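The renin-angiotensin system was followed in mesangial cells, which hold the capillaries of the kidney glomerulus and can contract, taken from mouse kidney as a primary culture and kept with or without transforming growth factor beta 1 (TGF-β1). Its 9 listed genes were Agt, Ren1, Ace, Enpep, Agtr1a, Agtr1b, Agtr2, Mas1 and Atp6ap2, and members were the rows of the expression table whose symbol equals a listed name. Of the 9, 6 had a row among the 19730 rows. No row matched Ren1, Ace or Agtr2, which are not analysed here. Per the labels, the cells were at passage 3 to 6 in a medium of high glucose (25.5 mM) and 20% serum, and treatment lasted 72 h with TGF-β1 at a dose of 10 ng/ml. The glucose and the serum are given for both groups, so they are no part of the comparison. RNA sequencing gave 3 Control and 3 TGF-β1 libraries. What the Control cells received in place of TGF-β1, and whether the libraries of a group came from separate cultures, is not stated, so the p-values measure the spread between these libraries, which may be technical.

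Angiotensinogen, the product of Agt, is a secreted protein that renin cuts to angiotensin I, and angiotensin-converting enzyme then trims this to angiotensin II. Angiotensin II acts on the type 1 receptors, which signal through Gq proteins and calcium and make mesangial cells contract, while aminopeptidase A removes its first residue and Mas is a receptor for a shorter angiotensin fragment. In the kidney the system sets glomerular blood flow and salt retention, and angiotensin II is a known inducer of TGF-β1 and of scarring.

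In these data the gene of the substrate and the gene of the peptidase fell, and the gene of the (pro)renin receptor rose. Agt fell from 74.2 ± 5.15 to 0.220 ± 0.105 FPKM (SD, n = 3 per group), and Enpep from 60.6 ± 3.87 to 5.49 ± 0.837 FPKM. Atp6ap2 rose from 40.7 ± 5.18 to 72.1 ± 1.67 FPKM. FPKM is the number of fragments per kilobase of transcript, scaled to the mapped fragments of the library, so levels can be set against each other between genes. The receptor genes Agtr1a, Agtr1b and Mas1 lay at or under 0.550 FPKM in each of the 6 libraries. The 3 members with a mean of at least 1 FPKM were tested with all other such rows, and all 3 were called changed (limma, adjusted p under 0.05). Of all 11898 rows tested this way, 48.1% were called changed, 24.5% higher and 23.6% lower with TGF-β1. A change as such was therefore common, and the members are described by its size. The 3 members below 1 FPKM were tested among all 19730 rows, of which 30.5% were called. None of these 3 passed with limma, and none had an unadjusted p under 0.05.

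The stretch of 100 bases just upstream of the start site is shown for the 3 called genes, since it is the part of each promoter nearest to where its changed transcript begins. The sequences are RefSeq promoters of build GRCm38.p6 that matched mm9 at 1 place each, and the positions are mm9. They run 5′ to 3′ on the strand of the gene, with a match to a searched motif in capitals.
Agt, chr8:127093607-127093706, minus strand: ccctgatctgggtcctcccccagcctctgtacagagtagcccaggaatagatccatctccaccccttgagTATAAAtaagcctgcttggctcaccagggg
Enpep, chr3:129035668-129035767, minus strand: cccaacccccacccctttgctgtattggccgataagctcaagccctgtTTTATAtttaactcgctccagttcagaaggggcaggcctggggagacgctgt
Atp6ap2, chrX:12164785-12164884, plus strand: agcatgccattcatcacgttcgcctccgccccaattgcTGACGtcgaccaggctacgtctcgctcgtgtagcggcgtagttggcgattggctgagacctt

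The Agt stretch holds TATAAA, the letters of a TATA box, at -30 to -25 from the start site. The Enpep stretch holds the same letters on the other strand, TTTATA, at -52 to -47. The Atp6ap2 stretch holds TGACG, a half-site of the cAMP response element, at -62 to -58. The RefSeq start of Agt is the start of the transcript in the table, while that of Enpep lies 29 bases and that of Atp6ap2 42 bases from it. Over 250 upstream bases and both strands, 12.4% of 32851 mouse promoters hold TATAAA and 17.8% hold TGACG. No other searched motif was found in the 3 promoters, namely CAGAC, a SMAD element that 42.2% of promoters hold, TGANTCA, an AP-1 site that 6.75% hold, and CACGTG, an E-box that 6.02% hold. These are matches of letters, and the libraries carry no measure of what binds there.

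Agt is a gene of 5 exons and 1 annotated transcript of 1891 nt, at chromosome 8, 127080434 to 127093606 (mm9, minus strand), and no other annotated gene overlaps it. Its level was 69.1, 74.2 and 79.4 FPKM in Control replicates 1, 2 and 3, and 0.216, 0.117 and 0.328 FPKM in TGF-β1 replicates 1, 2 and 3. The groups did not overlap, and the 9 pairings of a Control with a TGF-β1 library gave folds of 211 to 679. From the size of the smallest step between FPKM values, these levels rest on 1292, 1385 and 1448 fragments in Control and on 4, 2 and 6 fragments with TGF-β1. The pooled 4125 against 12 fragments give a 333.8-fold lower level with TGF-β1 once depth is taken into account, with an exact 95% interval of 191 to 647 for counting error only. In log2(FPKM + 1), where a gene that ends near 0 shows less than its full change, Agt fell by 5.95 (SE 0.10, 95% interval -6.19 to -5.70, limma adjusted p = 1.35e-06). Of 10791 tested protein-coding rows of at least 300 nt, 2 fell further on this scale. Such a rank also depends on the Control level, and no rank by fold was made. Agt stood at percentile 92.5 of 15913 protein-coding rows in Control and at percentile 23.8 with TGF-β1.

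Enpep encodes aminopeptidase A, a membrane enzyme that turns angiotensin II into angiotensin III. It lies at chromosome 3, 128972093 to 129035638 (minus strand), with 6 annotated transcripts, and its row is named by one of 4181 nt and 20 exons. Control replicates 1, 2 and 3 gave 60.0, 64.7 and 57.1 FPKM, and TGF-β1 replicates 1, 2 and 3 gave 5.16, 6.45 and 4.88 FPKM. The 2 groups lay apart, with folds of 8.86 to 13.3 over the pairings. Enpep fell by 3.25 on the log2 scale (SE 0.11, 95% interval -3.53 to -2.98, limma adjusted p = 1.17e-05). On that scale, which gives no rank by fold, 37 protein-coding rows fell further than Enpep. Unlike Agt it was still measured well after treatment, at percentile 50.8 of the protein-coding rows against 90.8 in Control, on about 695 fragments over the 3 TGF-β1 libraries against 7936 in Control. The ratio of Control to TGF-β1 from these fragments was 11.1. The 95% intervals of Agt and Enpep on the log2 scale did not overlap.

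Atp6ap2 encodes the (pro)renin receptor, which is also an accessory subunit of the vacuolar proton pump. It lies at chromosome X, 12164927 to 12194175 (plus strand), in 9 exons and 2324 nt. Its level was 45.2, 35.1 and 41.9 FPKM in Control replicates 1, 2 and 3 and 71.7, 74.0 and 70.7 FPKM with TGF-β1. Each TGF-β1 library was above each Control library, by 1.56 to 2.11 times and by 1.77 times between the means. The rise was 0.82 on the log2 scale (SE 0.11, 95% interval 0.56 to 1.07, limma adjusted p = 0.00138). It was a modest change in these data, since 1087 protein-coding rows rose further. Control replicate 2 was the lowest, and without it the change was 0.72 with adjusted p = 0.00276.

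**Figure D1:**
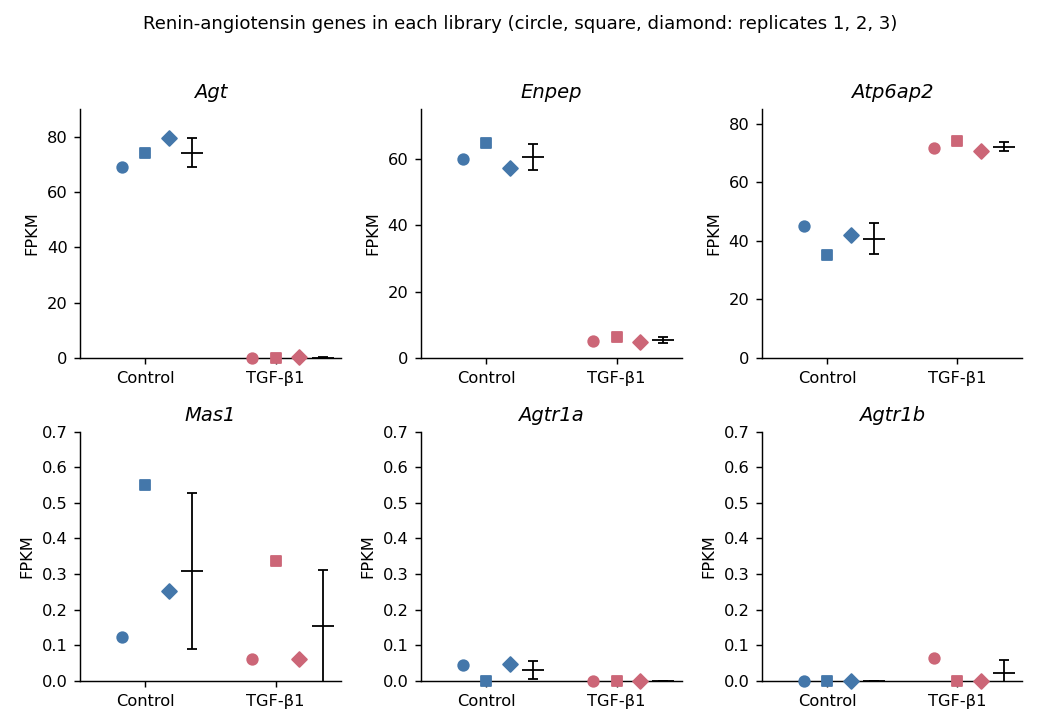
FPKM (vertical axes, starting at 0, with different ranges in the upper panels) of the 6 measured members in each Control (blue) and TGF-β1 (red) library; circles, squares and diamonds are replicates 1, 2 and 3, and the bars are the mean and SD of 3 libraries, cut at 0. The Agt and Enpep groups lie apart with TGF-β1 lower, the Atp6ap2 groups lie apart with TGF-β1 higher, and the 3 receptor genes stay at or under 0.550 FPKM.

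The receptor genes were near the limit of what these libraries could count. Agtr1a, the main type 1 receptor gene of the mouse (chromosome 13, 30428310 to 30474736, plus strand), was listed at 0.0452, 0 and 0.0464 FPKM in Control and at 0 in the 3 TGF-β1 libraries. That is 1 fragment in Control replicate 1 and 1 in Control replicate 3. A count of 0 still allows 3 fragments, or 0.137 to 0.148 FPKM in the TGF-β1 libraries. Agtr1b, the second type 1 receptor gene (chromosome 3, 20213395 to 20266099, minus strand), was listed at 0 in the 3 Control libraries, and at 0.0636, 0 and 0 FPKM with TGF-β1, which is a single fragment in TGF-β1 replicate 1. The coding sequences of both genes are identical at 981 of 1080 bases (90.8%), so single fragments may have been assigned to the wrong copy. The row of Agtr1a is named by a non-coding transcript of 501 nt and that of Agtr1b by one of 2147 nt. The counts instead use annotated transcripts of 2199 and 1632 nt, picked because they gave the most nearly whole fragments. For Agtr1b that choice rests on a single value. A difference in either receptor gene was not detectable at this depth (log2 change -0.04, 95% interval -0.13 to 0.04, limma adjusted p = 0.434 for Agtr1a, and 0.03, -0.07 to 0.12, adjusted p = 0.608 for Agtr1b). Adding 1 to such low FPKM keeps these intervals narrow, so they do not show that the genes were unchanged. For the ratio of Control to TGF-β1, the exact 95% counting interval ran from 0.182 with no upper limit for Agtr1a, and up to 37.9 for Agtr1b.

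Mas1 encodes Mas (chromosome 17, 13033945 to 13061009, minus strand). Control replicates 1, 2 and 3 gave 0.122, 0.550 and 0.252 FPKM, or 2, 9 and 4 fragments, and TGF-β1 replicates gave 0.0619, 0.336 and 0.0627 FPKM, or 1, 5 and 1 fragments. These counts use a transcript of 1675 nt, picked among those annotated because it gave the most nearly whole counts, while the row is named by one of 2401 nt. The groups overlapped, and replicate 2 was the highest of each group. The log2 change of -0.18 was within the spread (SE 0.15, 95% interval -0.54 to 0.19, limma adjusted p = 0.439). With 15 against 7 fragments, the ratio of Control to TGF-β1 was 2.08, with an exact 95% counting interval of 0.799 to 6.03. Mas1 overlaps the non-coding gene Airn on the other strand, and it is not stated that the counting used strand, so these few fragments may belong to either gene.

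Ordered by level, the Control libraries had Agt above Enpep and Enpep above Atp6ap2, with no overlap between neighbours, and then Mas1 at a mean of 0.308 and Agtr1a at 0.0305 FPKM, with Agtr1b listed at 0. With TGF-β1 the order was Atp6ap2, then Enpep, and then Agt and Mas1, whose libraries overlapped (0.117 to 0.328 and 0.0619 to 0.336 FPKM). Agt thus ended in the range of a receptor gene counted in single fragments.

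**Figure D2:**
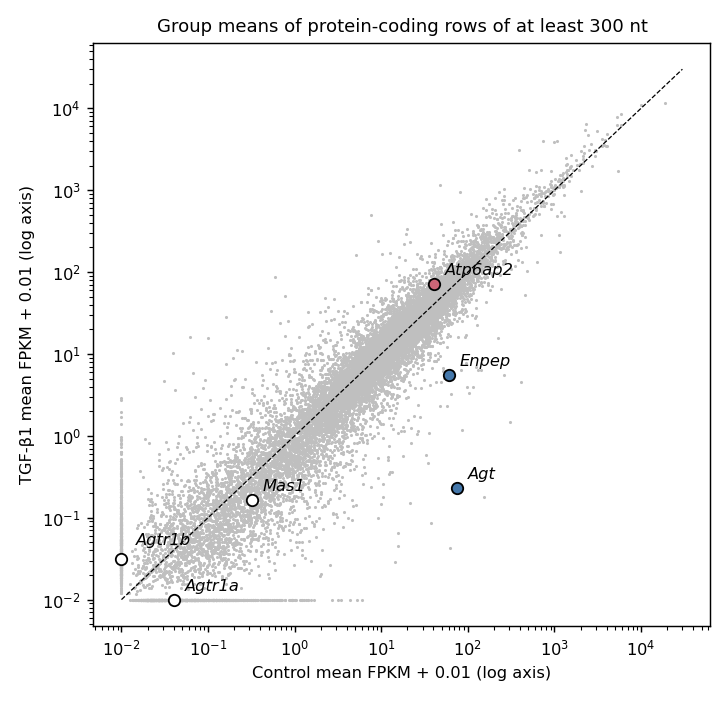
Mean FPKM + 0.01 of the 3 TGF-β1 libraries (vertical log axis) against the 3 Control libraries (horizontal log axis) for 15913 protein-coding rows of at least 300 nt (grey); the 6 members are circled, blue for called lower, red for called higher, white for not called, and the dashed line marks equal means. Agt at 74.2 against 0.220 FPKM lies far below the cloud, Enpep lies at its lower edge, and Atp6ap2 lies inside it.

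The rows whose levels were most like those of each abundant member were found by the root mean square difference of log2(FPKM + 1) over the 6 libraries. For Agt these were Cxcl15 (0.27), Wnt16 (0.63), C3 (0.70), Islr (0.80) and Cldn2 (0.87). Cxcl15, a chemokine, went from 62.7 to 0.0331 FPKM in the mean, Wnt16, a secreted Wnt ligand, from 86.0 to 1.17 FPKM, and C3, the central complement component, from 37.7 to 0.0761 FPKM. For Enpep the nearest were Nrbp2 (0.20), Osmr (0.21), Sepp1 (0.28), Thsd7a (0.34) and Clec2d (0.37), of which Osmr, a receptor subunit for oncostatin M, went from 52.2 to 6.17 FPKM. Atp6ap2 had closer neighbours, Chmp5 (0.06), Ufm1 (0.11), Slc35b1 (0.12), Twf1 (0.12) and Mtpn (0.13). Chmp5, a part of the endosomal sorting machinery, went from 40.9 to 73.6 FPKM. The 6 points share their libraries and depth, and likeness over them is a description.

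**Figure D3:**
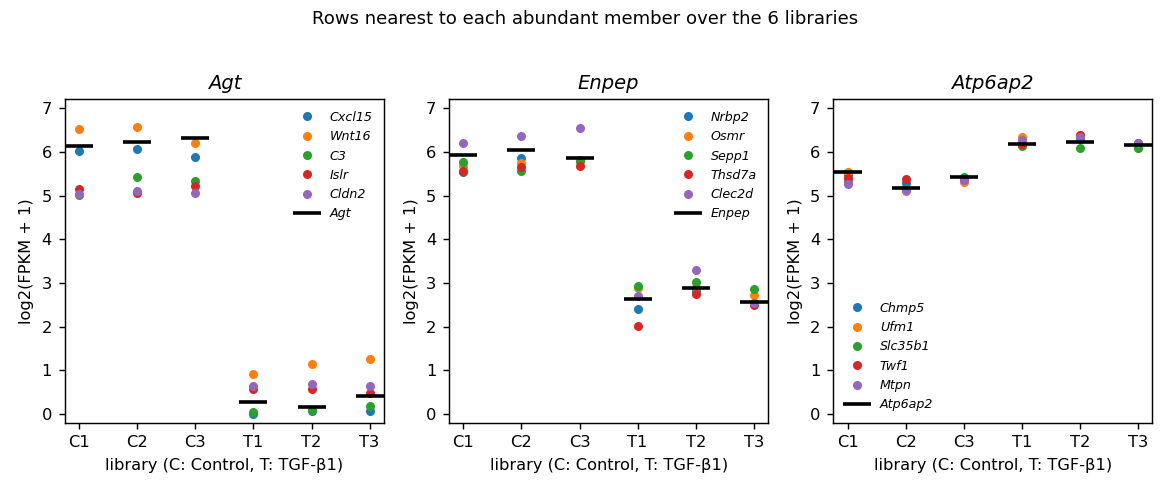
Level as log2(FPKM + 1) (vertical axis) in the 6 libraries (horizontal axis, C for Control and T for TGF-β1) of each abundant member (black bar) and its 5 nearest rows (coloured points). The neighbours of Atp6ap2 track it within 0.13 in root mean square, those of Agt only within 0.87.

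Beyond the members, 95 genes in 8 lists were examined, covering other angiotensin-cutting enzymes, receptor partners, Gq and calcium signalling, factors known to act on Agt transcription, regulators of renin, the mineralocorticoid arm, kinins and the proton pump. Of these, 86 had a row and 67 passed the filter of a mean FPKM of at least 1. Among the 67, 15 rose and 20 fell, together 52.2%, close to the 48.1% of all rows, so the lists are described by their genes. Log2 changes given for list genes are of FPKM + 1, which shrinks the change of genes at a few FPKM or less. The median change of all tested rows was -0.02. It was -0.12 when libraries were rescaled to their upper quartile and -0.19 when rescaled to the sum of protein-coding rows, and the split of all called rows then went from 2911 up and 2810 down to 2365 and 3462 and to 2014 and 3956. The split of the 67 genes went from 15 up and 20 down to 13 and 24 and to 12 and 27.

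Of the other enzymes that cut angiotensins, 10 of 16 were tested, and 3 rose, 3 fell and 4 were not called, with a median log2 change of 0.01 that was -0.09 and -0.17 under the 2 rescalings. Anpep, aminopeptidase N, which shortens angiotensin III, fell from 2.08 to 0.0299 FPKM, or 69.6-fold between the means (log2 change of FPKM + 1, -1.57). Its Control libraries gave 1.60, 2.42 and 2.22 FPKM and its TGF-β1 libraries 0.0283, 0.0613 and 0. Mme, neprilysin, fell from 2.98 to 0.457 FPKM (-1.45), with 3.14, 3.05 and 2.76 FPKM against 0.418, 0.424 and 0.529. Ctsa, the lysosomal carboxypeptidase cathepsin A, fell from 216 to 114 FPKM (-0.92). Prep, prolyl oligopeptidase, rose from 27.4 to 44.9 FPKM (0.70). Lnpep, a membrane aminopeptidase that binds angiotensin IV, rose from 1.15 to 2.30 FPKM (0.63). With replicates 1 and 3 only, neither was called (limma adjusted p = 0.0537 for Prep and 0.0765 for Lnpep). Dpp3, dipeptidyl peptidase III, rose from 35.7 to 44.1 FPKM (0.30, limma adjusted p = 0.0342), but was no longer called under either rescaling, with the replicate block (adjusted p = 0.0677), or without Control replicate 1 or 2 or TGF-β1 replicate 1 or 3 (adjusted p up to 0.117).

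Of 7 tested partners of the receptors, 1 rose, 2 fell and 4 were not called (median -0.17, and -0.24 and -0.29 under the 2 rescalings, of which the second called 3 lower). Mtus1, which encodes a protein that binds the type 2 receptor, rose from 7.18 to 13.2 FPKM (log2 change 0.79). Arrb1, a beta-arrestin that switches off receptor signalling, fell from 5.90 to 0.879 FPKM (-1.86), and Arap1 from 10.0 to 4.51 FPKM. Arap1 was no longer called with replicates 1 and 3 only (limma adjusted p = 0.0512). Agtrap, which binds the tail of the type 1 receptor, was at 6.21 and 4.80 FPKM and was not called (limma adjusted p = 0.113).

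In the Gq and calcium list, 16 genes were tested, and 1 rose, 4 fell and 11 were not called (median -0.21). Under both rescalings 7 were called lower and 1 higher, with medians of -0.31 and -0.38. Itpr1, a calcium release channel of the endoplasmic reticulum, fell from 10.4 to 4.55 FPKM (log2 change -1.04). The exchange factor Arhgef12, which passes signals from G proteins to RhoA, fell from 16.5 to 9.98 FPKM (-0.67). The phospholipase genes went different ways. Plcb1 fell from 2.03 to 0.664 FPKM (-0.86) and Plcb4 from 12.7 to 9.26 FPKM (-0.41), while Plcb3 rose from 9.69 to 15.4 FPKM (0.62). The call of Plcb1 was lost without Control replicate 1 or 2 or TGF-β1 replicate 1 (adjusted p up to 0.0548), and that of Plcb4 without Control replicate 1 or 2 or TGF-β1 replicate 1 or 3 (up to 0.103). Gnaq itself was at 23.4 and 19.5 FPKM (limma adjusted p = 0.0927). Itpr3 was called with the replicate block (log2 change 0.44, limma adjusted p = 0.0374 against 0.0797 without it). Below the filter, Rgs4, which speeds the shut-off of Gq, fell from 1.48 to 0.167 FPKM (-1.08). Of its relatives, Rgs2 fell from 1.48 to 0.409 FPKM (-0.82, limma adjusted p = 0.0349). Rgs5 went the other way, from 0.0864 to 0.250 FPKM (0.20, limma adjusted p = 0.0336). With the replicate block the adjusted p was 0.0882 for Rgs2 and 0.0651 for Rgs5. Rgs2 was lost without any single library, and Rgs5 without Control replicate 1 or 2 or TGF-β1 replicate 2 or 3 (adjusted p up to 0.118 and 0.0761).

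Among factors known to act on Agt transcription, 9 were tested, and 5 fell, 4 were not called and none rose (median -0.33, against -0.43 and -0.51 under the 2 rescalings). For comparison, 23.6% of all tested rows were called lower. Whether these factors bear on the fall of Agt was not tested. Nr3c1, the glucocorticoid receptor, fell from 21.1 to 11.5 FPKM (log2 change -0.82). Stat3, which carries cytokine signals, fell from 38.6 to 24.8 FPKM (-0.61). Nfkb1, a subunit of NF-κB, fell from 29.3 to 23.4 FPKM (-0.31), and Rela, its partner, from 34.1 to 28.8 FPKM (-0.24, limma adjusted p = 0.0446). Rela was no longer called with the replicate block (adjusted p = 0.0725) or when any single library was left out (up to 0.109). Nfkb1 was no longer called with replicates 1 and 3 only (limma adjusted p = 0.0629). Cebpd varied widely between replicates, with 19.0, 5.24 and 17.7 FPKM in Control and 9.93, 2.42 and 6.48 FPKM with TGF-β1. Replicate 2 was the lowest in both groups. Its log2 change of -1.02 was not called in the unpaired fit (limma adjusted p = 0.200) and was called with the replicate block (adjusted p = 0.00528).

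Of 8 tested regulators of renin, 2 rose, 3 fell and 3 were not called (median -0.21). Rescaled to the upper quartile, 1 was called higher and 4 lower (median -0.31), and rescaled to the sum of protein-coding rows, 1 higher and 5 lower (median -0.38). Gnas, the G protein subunit that raises cAMP, rose from 212 to 313 FPKM (log2 change 0.56), while the cyclase gene Adcy6 fell from 12.9 to 8.06 FPKM (-0.60) and the coactivator gene Crebbp from 7.55 to 4.31 FPKM (-0.69). Vdr, the vitamin D receptor, rose from 5.28 to 6.92 FPKM (0.34), which was no longer called under either rescaling (limma adjusted p up to 0.171), nor without Control replicate 1 or any single TGF-β1 library (up to 0.0586). Akr1b7, an aldo-keto reductase that marks renin cells, fell from 2.16 to 0.910 FPKM (-0.75). The call of Adcy6 was lost without Control replicate 2 or TGF-β1 replicate 1 (adjusted p up to 0.0573) and that of Akr1b7 without Control replicate 2 or TGF-β1 replicate 3 (up to 0.0625). Gja5, a gap junction gene of renin cells, was at 0.219 and 0.503 FPKM (limma adjusted p = 0.0215, and 0.0713 with the replicate block). Its call was also lost when 0.1 or 0.01 was added to each FPKM in place of 1. The same held without Control replicate 1 or 3 or TGF-β1 replicate 1 (limma adjusted p up to 0.0623).

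In the mineralocorticoid arm, 2 genes were tested and both changed. Sgk1, a kinase that aldosterone induces, rose from 5.75 to 15.7 FPKM (log2 change 1.31), with 6.18, 6.23 and 4.85 FPKM in Control and 15.4, 14.1 and 17.6 with TGF-β1. Nr3c2, the mineralocorticoid receptor, fell from 1.96 to 0.354 FPKM (-1.13), with 1.91, 2.17 and 1.79 FPKM against 0.342, 0.399 and 0.320. Below the filter, Cyp11b1, a steroid hydroxylase gene with a near copy in Cyp11b2, rose from 0.0822, 0 and 0.0422 to 1.38, 1.53 and 1.34 FPKM (1.22, limma adjusted p = 1.71e-04). Scnn1a, a subunit of the epithelial sodium channel, fell from 1.18 to 0.288 FPKM (-0.76). No row matched Cyp11b2, which is not analysed here, so reads of this pair could not be compared.

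Of 4 kinin genes, Klkb1, plasma prekallikrein, was tested and not called (10.6 and 9.67 FPKM), but was called lower when rescaled to the sum of protein-coding rows. Kng1, the kinin precursor, was listed at 0.308, 1.02 and 2.22 FPKM in Control and at 0 in the 3 TGF-β1 libraries, and did not pass (limma adjusted p = 0.0524).

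Of the 14 proton pump genes, the complex in which the product of Atp6ap2 takes part, all were tested, and 7 rose, 2 fell and 5 were not called (median 0.28, and 0.17 and 0.08 under the 2 rescalings). Atp6v1g1 rose from 150 to 269 FPKM (log2 change 0.85) and Atp6v1h from 25.3 to 45.8 FPKM (0.84), sizes close to the 0.82 of Atp6ap2. Atp6v1e1 rose by 0.68, Atp6v0e by 0.64, Atp6v1a and Atp6v1d by 0.57 each and Atp6ap1, the other accessory subunit, by 0.37. Atp6v0a1 fell from 49.9 to 33.3 FPKM (-0.56) and Atp6v0b from 295 to 206 FPKM (-0.50). Of the 7 that rose, 5 encode subunits of the cytosolic part of the pump. From that part Atp6v1b2, Atp6v1c1 and Atp6v1f were not called. Both that fell encode subunits of the membrane part, of which Atp6v0e rose and Atp6v0c and Atp6v0d1 were not called. Among all tested rows, 24.5% were called higher and 23.6% lower. Atp6v0e was no longer called without TGF-β1 replicate 1 or 2 (limma adjusted p up to 0.0657), and Atp6v0b without TGF-β1 replicate 1 or 3 (up to 0.0645). Atp6ap1 was no longer called when rescaled to the sum of protein-coding rows (limma adjusted p = 0.117). With replicates 1 and 3 only, neither Atp6v0e nor Atp6ap1 was called.

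**Figure D4:**
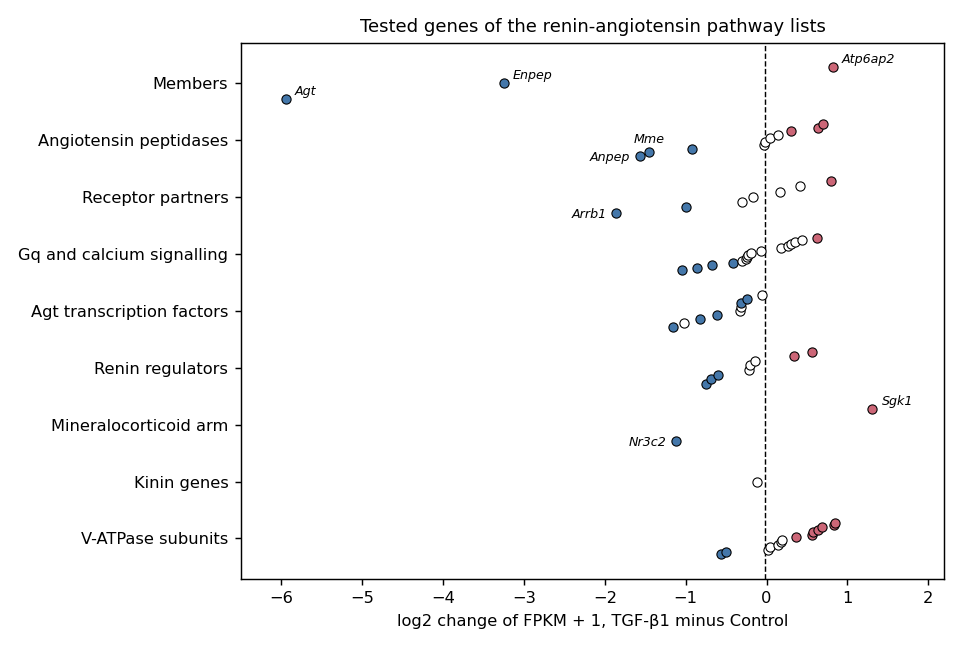
log2 change of FPKM + 1, TGF-β1 minus Control (horizontal axis), of the 3 tested members and of the tested genes of each list (rows); red is called higher, blue called lower, white not called, and the dashed line is the median of all 11898 tested rows. On this scale Agt at -5.95 and Enpep at -3.25 lie beyond each of the 67 list genes. The scale gives no rank by fold, since adding 1 shrinks the change of genes at low FPKM. Between the means Anpep fell 69.6-fold, which is further than Enpep.

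The markers of mesangial cells were present in part. Of 6, Vim and Acta2 rose, Pdgfrb was called lower (limma adjusted p = 0.0396, 0.0583 with the replicate block, and not called without any 1 of 5 libraries, Control replicate 1 being the exception), Gata3 was not called, and Itga8 and Des were at or under 0.550 FPKM in each library. Their summed level was 2876 to 3409 FPKM in Control and 7214 to 7549 with TGF-β1, most of it Vim and Acta2, which fibroblasts also express. Since Agt and Enpep are also known from proximal tubule cells, and Enpep from podocytes, markers of those cells were read beside them. Of 5 podocyte markers, Wt1, Podxl and Synpo fell, Nphs1 was at or under 0.398 FPKM, and the sum went from 19.7 to 24.9 in Control to 12.6 to 13.7 FPKM. Podxl was no longer called without Control replicate 2 or TGF-β1 replicate 1 or 3 (limma adjusted p up to 0.0572), and Wt1 with replicates 1 and 3 only (0.0944). Of 4 proximal tubule markers 2 had a row. Lrp2 fell from 1.43 to 0.230 FPKM and Cubn rose from 0.636 to 1.28 FPKM. Their sum was 1.68 to 2.53 in Control and 1.44 to 1.55 FPKM with TGF-β1. Cubn was no longer called with replicates 1 and 3 only (limma adjusted p = 0.0550). Of 4 macrophage markers, Csf1r fell from 6.27 to 0.411 FPKM, Cd68 and Itgam were not called, and Ptprc, the pan-leukocyte marker, was listed at 0 in the 3 Control libraries; the sum went from 8.19 to 9.58 in Control to 2.26 to 3.24 FPKM. Endothelial markers summed to 0.361 to 0.468 in Control and 0.299 to 0.822 FPKM, with Cdh5 and Kdr listed at 0 in Control, and epithelial markers to 0.206 to 0.590 and 1.51 to 1.92 FPKM, where Krt18 rose. The part of these cells in the changes of Agt and Enpep was not tested, and in bulk RNA fewer cells of a type and less RNA per cell cannot be told apart.

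**Figure D5:**
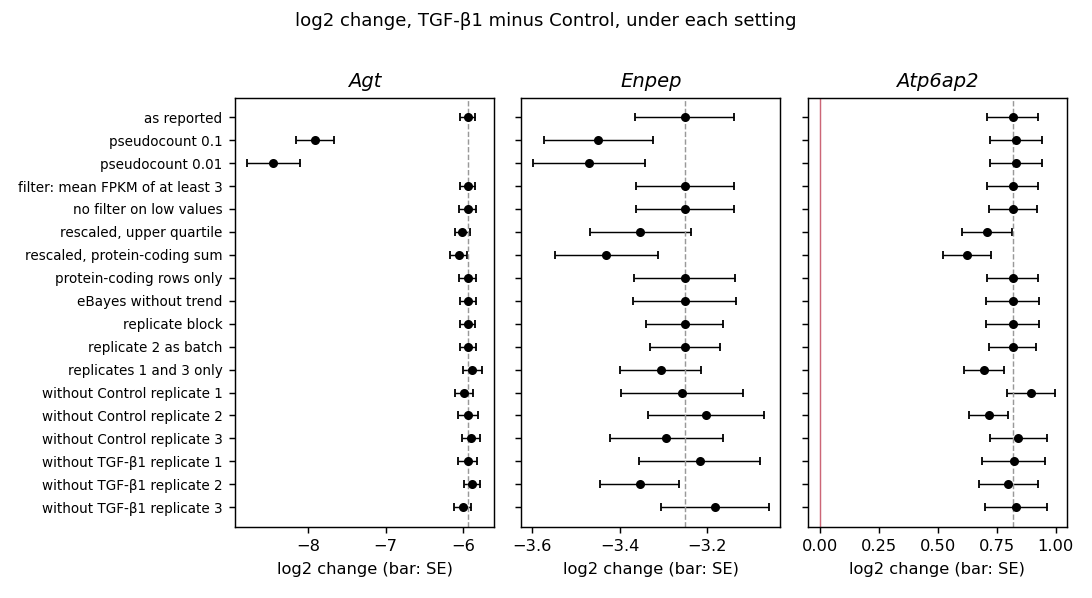
log2 change, TGF-β1 minus Control (horizontal axes, with different ranges), with its SE for Agt, Enpep and Atp6ap2 under the reported setting and 17 alternatives (vertical axis); the dashed line is the reported value and the red line 0. Agt lies between -8.44 and -5.89, Enpep between -3.47 and -3.18 and Atp6ap2 between 0.63 and 0.89.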

How the data were processed

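Total RNA was sequenced from 3 Control and 3 TGF-β1 samples. The authors aligned cleaned reads to the mm9 genome by TopHat and took FPKM from Cufflinks, and the deposited values are these FPKM, 1 column per library; the submitters' processing notes name TopHat2 2.0.11. The authors tested with a count model (DESeq), and counts were not used here.

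The two-sided test was limma (version 3.58.1, R 4.3.3, lmFit and trended eBayes) of log2 values after adding 1 to each FPKM. It was run on rows whose mean FPKM reached 1, with p-values adjusted by Benjamini-Hochberg over those rows and a threshold of 0.05. Genes below the filter were taken from the same test on all rows. The test was checked on simulated data. Depth, read from the steps of FPKM under 0.6 with an assumed fragment of 200 nt, was 10.13 to 11.05 M fragments per library, where 99.5% or more of the low values lay within 0.1 of a whole fragment. Pairs of libraries correlated at 0.876 to 0.940 (Pearson's r over rows) inside a group and at 0.818 to 0.853 across groups. Deviations from the group means correlated at 0.19, 0.42 and 0.12 between libraries of the same number 1, 2 and 3. Control 1 with TGF-β1 3 (0.22) and Control 3 with TGF-β1 1 (0.14) correlated as well, so replicate 2 stood apart while 1 and 3 were not matched by number. The reported fit did not use the numbers. Since each same-number correlation was above 0.1, a second fit with the replicate number as a block is given where it changes a call. This block was chosen from the data, whose correlations do not show replicates 1 and 3 to be pairs. The labels do not say what a number marks.

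Coordinates and transcripts are from GENCODE M1 on mm9. Promoters from RefSeq had an entry for 5 of the 6 members with a row. The members and lists were chosen with earlier results of these data known. Named were the members, the called genes of each list (up to 6 with the largest change, and those needed for a small count), and the 5 nearest rows of each abundant member; Agtrap, Gnaq, Itpr3, Cebpd and Atp6ap1 were added after their values were seen. A few genes of the lists are counted but not reported here by name. Python 3.11.15 with pandas 2.3.3 and scipy 1.17.1 was used. Alternatives were other pseudocounts, filters, scalings and row sets, no trend, the block, a term for replicate 2, and left-out libraries.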

Additional observations from a re-analysis of the deposited data

How the results depend on the processing

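Under 17 alternatives Agt and Enpep remained called lower and Atp6ap2 higher. Their adjusted p (limma) reached at most 9.59e-04, 0.00127 and 0.00922, and with 1 library left out their log2 changes ranged from -6.01 to -5.89, from -3.35 to -3.18 and from 0.72 to 0.89. A pseudocount of 0.1 or 0.01 moved Agt to -7.91 and -8.44. With the replicate block the count of members changed stayed at 3 and that of pathway genes at 35, and apart from the genes named with it above the block changed no call among members and lists. The pathway count ranged from 25, with replicates 1 and 3 only, to 40, and from 27 to 36 with 1 library left out. Of the 35 genes, 21 were called under each alternative that gave a value, and none turned direction. Agtr1a, Agtr1b and Mas1 were never called (lowest adjusted p 0.0709, 0.433 and 0.0950). Depth limits these receptor genes, where a library held 0 to 9 fragments.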
